A study of Mus musculus with 4 samples.

Results

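The genes described here are 35 genes of DNA replication and cell division, taken as a fixed list from the 22631 gene rows that both deposited single-cell matrices share. All 35 were found. They were split by the phase in which their products act, with 12 S phase genes, 20 G2/M genes and 3 genes that many non-dividing cells also make. The S phase genes were Pcna, Mcm2 to Mcm7, Pclaf, Tyms, Rrm1, Rrm2 and Tk1. The G2/M genes were Mki67, Top2a, Birc5, Ube2c, Ccnb1, Ccnb2, Ccna2, Cdk1, Cdc20, Cenpa, Cenpf, Nusap1, Tpx2, Aurka, Aurkb, Plk1, Bub1, Bub1b, Cdca8 and Smc2. The 3 broad genes were Stmn1, H2afz (listed as H2az1 in the files) and Hmgb2.

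The cells were migratory dendritic cells (DCs), sorted as B220- CD11cint MHCIIhi cells from mouse lymph nodes that drain the ear. All mice were Tnfsf4KI/+ and made blue fluorescent protein (BFP) from 1 allele of the gene of OX40L, a costimulatory ligand that DCs show to T cells. In the MC903 group the ears were treated with MC903, a vitamin D analogue that makes skin release the cytokine TSLP, on days 0, 2 and 4, and the nodes were taken on day 5. In the untreated group the ears received nothing. From each group, BFP+ cells (5000 sorted) and BFP- cells (7000 sorted) were marked with different hashtag antibodies and loaded together, so MC903 and untreated cells went through separate captures and separate sequencing lanes. Hence MC903 treatment cannot be told apart from capture and lane, and each of the 4 populations is 1 pool. How old the mice were, and how many were pooled, was not stated in the labels. No test was run on these single pools, cells were not used as replicates, and every interval below is a 95% interval that covers counting error only.

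Barcodes were kept when they held 500 genes or more and no more than 10% mitochondrial transcripts, which left 5636 of 6316 barcodes in the MC903 capture and 8422 of 9520 in the untreated capture. Depth differed, with a median of 9219 unique transcripts (unique molecular identifiers, UMIs) per kept barcode in the MC903 capture and 2622 in the untreated capture. The captures shared 23 barcode sequences. A barcode was called DC-like when 5 genes of migratory DCs (Fscn1, Ccl22, Cacnb3, Tbc1d4 and Relb) made up at least 20 of every 10000 UMIs and fewer than 3 B cell and fewer than 3 T cell markers were seen. This gave 4656 DC-like barcodes in the MC903 capture and 6337 in the untreated capture. Of the MC903 ones 1423 carried mainly the BFP+ hashtag and 3110 the BFP- hashtag, and of the untreated ones 438 carried mainly the BFP+ hashtag and 4292 the BFP- hashtag. DC-like barcodes carried the markers of the labelled cell type, as the actin-bundling gene Fscn1 stood at 2499 CPM (UMIs of a gene per 1000000 UMIs) in MC903 and 2057 CPM in untreated DC-like barcodes and the migration receptor Ccr7 at 2692 CPM in MC903 and 2541 CPM in untreated ones. The T cell gene Cd3e stood at 0.612 CPM in MC903 and 7.42 CPM in untreated DC-like barcodes, and the B cell gene Cd79a at 1.2 CPM in MC903 and 26.3 CPM in untreated ones. The BFP transcript followed the sort, with 104 CPM in BFP+ and 9.66 CPM in BFP- barcodes of the MC903 capture and 83.0 CPM in BFP+ and 6.99 CPM in BFP- barcodes of the untreated capture.

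A cell that copies its DNA loads the MCM helicase onto the chromosomes, clamps the polymerase with PCNA and makes nucleotides with ribonucleotide reductase (Rrm1, Rrm2), thymidylate synthase (Tyms) and thymidine kinase (Tk1). In division, cyclins A and B drive Cdk1, the Aurora kinases and Plk1 build the spindle, the checkpoint kinases Bub1 and Bub1b watch the kinetochores, and Cdc20 and Ube2c start the destruction of the cyclins. S phase genes are known to be switched on by E2F factors. G2/M genes are switched on later by the MuvB complex with B-Myb and FOXM1, through the cell cycle homology region (CHR), often beside CCAAT boxes bound by NF-Y. Dendritic cells that have matured and left the skin are known as mostly non-dividing, whereas lymphocytes in the node divide when activated. Langerhans cells, the DCs of the epidermis, renew themselves in the skin.

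The promoters of 5 of the genes are shown because the 2 phases carry different elements and because these genes lead the results that follow. Each stretch runs from 250 bases before to 50 bases after the gene's start, 5′ to 3′ on the gene's strand, from the RefSeq table on GRCm38.p6. Capitals mark every match, on either strand, to CHR (TTTGAA or TTCGAA), to CCAAT, or to E2F (TTTCCCGC, TTTCGCGC, TTTGCCGC or TTTGGCGC). Mcm6, a subunit of the replication helicase, lies at chr1:128359656-128359955 on the minus strand. Pclaf, a partner of PCNA, lies at chr9:65890073-65890372 on the plus strand. Ube2c, the ubiquitin-conjugating enzyme of the anaphase-promoting complex, lies at chr2:164769679-164769978 on the plus strand. Ccnb2, cyclin B2, lies at chr9:70421505-70421804 on the minus strand. Mki67, the proliferation antigen Ki-67 that coats mitotic chromosomes, lies at chr7:135716330-135716629 on the minus strand.
Mcm6: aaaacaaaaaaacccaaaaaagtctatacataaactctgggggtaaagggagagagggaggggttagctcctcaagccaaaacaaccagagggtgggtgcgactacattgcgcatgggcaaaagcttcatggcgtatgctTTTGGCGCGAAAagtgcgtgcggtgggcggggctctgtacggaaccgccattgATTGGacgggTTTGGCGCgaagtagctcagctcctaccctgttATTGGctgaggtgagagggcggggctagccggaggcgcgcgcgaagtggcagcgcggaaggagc
Pclaf: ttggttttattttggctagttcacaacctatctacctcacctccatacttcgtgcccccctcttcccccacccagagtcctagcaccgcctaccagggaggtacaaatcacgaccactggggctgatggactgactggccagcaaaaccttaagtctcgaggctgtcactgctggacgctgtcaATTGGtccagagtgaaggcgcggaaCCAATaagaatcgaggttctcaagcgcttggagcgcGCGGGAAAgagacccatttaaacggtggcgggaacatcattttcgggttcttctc
Ube2c: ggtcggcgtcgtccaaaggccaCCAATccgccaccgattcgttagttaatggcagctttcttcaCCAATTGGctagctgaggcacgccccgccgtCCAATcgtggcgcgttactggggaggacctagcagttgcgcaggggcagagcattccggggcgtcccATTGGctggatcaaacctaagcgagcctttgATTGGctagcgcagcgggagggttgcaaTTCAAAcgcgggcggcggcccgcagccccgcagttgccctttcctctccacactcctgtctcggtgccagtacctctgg
Ccnb2: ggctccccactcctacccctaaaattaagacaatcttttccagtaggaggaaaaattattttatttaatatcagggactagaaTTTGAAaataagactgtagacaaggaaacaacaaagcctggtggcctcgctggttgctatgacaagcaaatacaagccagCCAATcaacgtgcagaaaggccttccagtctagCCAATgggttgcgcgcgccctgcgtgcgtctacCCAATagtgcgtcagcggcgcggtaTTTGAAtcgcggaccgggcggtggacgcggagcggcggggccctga
Mki67: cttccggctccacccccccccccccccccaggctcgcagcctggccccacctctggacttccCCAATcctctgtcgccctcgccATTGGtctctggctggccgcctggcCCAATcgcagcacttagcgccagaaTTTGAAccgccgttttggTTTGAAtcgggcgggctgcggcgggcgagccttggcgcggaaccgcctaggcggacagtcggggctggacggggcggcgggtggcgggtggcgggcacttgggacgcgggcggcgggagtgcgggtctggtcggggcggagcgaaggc

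Mcm6 held 3 E2F matches and 0 CHR matches, and 2 of its E2F matches overlap on opposite strands. Ube2c, Ccnb2 and Mki67 held 1, 2 and 2 CHR matches and 0 E2F matches, with 6, 3 and 3 CCAAT boxes, and 2 of the Ube2c boxes overlap. Promoters were matched for 30 of the 35 genes, and Mcm4, Ccna2, Tpx2, Aurkb and Stmn1 had none in the table. Members are counted as genes, so that Mcm7, with 2 starts in the table, counts once by a match at either, while the shares over the table are of single promoters. A CHR match lay in 14 of 17 G2/M promoters (82.4%) and in 2 of 11 S phase promoters (18.2%), beside 19.2% of all 32851 promoters of the table. An E2F match lay in 1 of 17 G2/M promoters and in 5 of 11 S phase promoters, beside 2.26% of all promoters. CCAAT was common to both phases, in 15 of 17 G2/M and 9 of 11 S phase promoters against 37.4% of all promoters. All 14 G2/M promoters with a CHR match also held CCAAT, a pair found in 7.52% of all promoters. Most G2/M genes therefore shared letters that most S phase genes lacked, although these matches are descriptions of the sequence and not of binding.

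Replication genes were read at low levels in DC-like barcodes of all 4 populations. Each UMI stands for the 3′ end of 1 transcript, so these levels carry no term for transcript length. Pcna, the polymerase clamp, stood at 45.8 CPM in MC903 BFP+, 47.6 CPM in MC903 BFP-, 48.6 CPM in untreated BFP+ and 64.1 CPM in untreated BFP- DC-like barcodes. Mcm6 stood at 21.4 CPM in MC903 BFP+, 17.6 CPM in MC903 BFP-, 21.9 CPM in untreated BFP+ and 18.4 CPM in untreated BFP- barcodes. Mcm6 thus varied little across populations, and the other 5 helicase genes ranged between 4.51 CPM (Mcm2 in MC903 BFP+) and 31.6 CPM (Mcm3 in MC903 BFP+). Tyms was lowest where Pcna was highest, at 29.0 CPM in MC903 BFP+, 22.9 CPM in MC903 BFP-, 24.6 CPM in untreated BFP+ and 15.3 CPM in untreated BFP- barcodes. Pclaf was sparse and uneven, at 2.06 CPM in MC903 BFP+, 3.62 CPM in MC903 BFP-, 5.40 CPM in untreated BFP+ and 12.3 CPM in untreated BFP- barcodes. It was highest in untreated BFP- barcodes, where its interval of 10.6 to 14.1 CPM lay above those of the other 3 populations. Rrm2, the S phase subunit of ribonucleotide reductase, was rarer still, at 0.451 CPM in MC903 BFP+, 0.954 CPM in MC903 BFP-, 0.675 CPM in untreated BFP+ and 2.76 CPM in untreated BFP- barcodes, whereas its partner Rrm1 stood between 11.4 CPM and 15.1 CPM.

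Mitotic genes split into a group seen in every population and a group close to 0. Cenpa, the histone that marks centromeres, stood at 25.1 CPM in MC903 BFP+, 21.5 CPM in MC903 BFP-, 18.2 CPM in untreated BFP+ and 17.5 CPM in untreated BFP- DC-like barcodes. Smc2, a condensin subunit, was as even, between 20.3 CPM and 23.5 CPM in the 4 populations. Cyclin B2 marked the other end, with 0.708 CPM in MC903 BFP+, 0.763 CPM in MC903 BFP-, 0 UMIs in untreated BFP+ and 1.96 CPM in untreated BFP- barcodes. A count of 0 among the untreated BFP+ barcodes allows up to 1.01 CPM (3 counts), so depth limits this value, and the spindle kinase Plk1 also had 0 UMIs there. Cyclin B1 stood between 0.338 CPM and 2.27 CPM and cyclin A2 between 0.338 CPM and 2.76 CPM. Ube2c had 34 UMIs (2.19 CPM) in MC903 BFP+, 78 UMIs (2.48 CPM) in MC903 BFP-, 4 UMIs (1.35 CPM) in untreated BFP+ and 162 UMIs (9.93 CPM) in untreated BFP- barcodes. Mki67 had 125 UMIs (8.04 CPM) in MC903 BFP+, 608 UMIs (19.3 CPM) in MC903 BFP-, 62 UMIs (20.9 CPM) in untreated BFP+ and 508 UMIs (31.1 CPM) in untreated BFP- barcodes. Its low value was that of MC903 BFP+ barcodes, whose interval of 6.70 to 9.59 CPM lay below those of the other 3.

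Each of the 3 broad genes was lowest in MC903 BFP+ and highest in untreated BFP- DC-like barcodes. H2afz, a histone H2A variant, stood at 1659 CPM in MC903 BFP+, 2391 CPM in MC903 BFP-, 1815 CPM in untreated BFP+ and 2509 CPM in untreated BFP- barcodes, lower in BFP+ than in BFP- barcodes of both captures. The chromatin protein gene Hmgb2 lay between 154 CPM and 218 CPM, and the tubulin-binding gene Stmn1 between 13.1 CPM and 28.9 CPM. H2afz and Hmgb2 have close copies in the genome, and no source used here says how reads shared with them were counted.

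**Figure D1:**
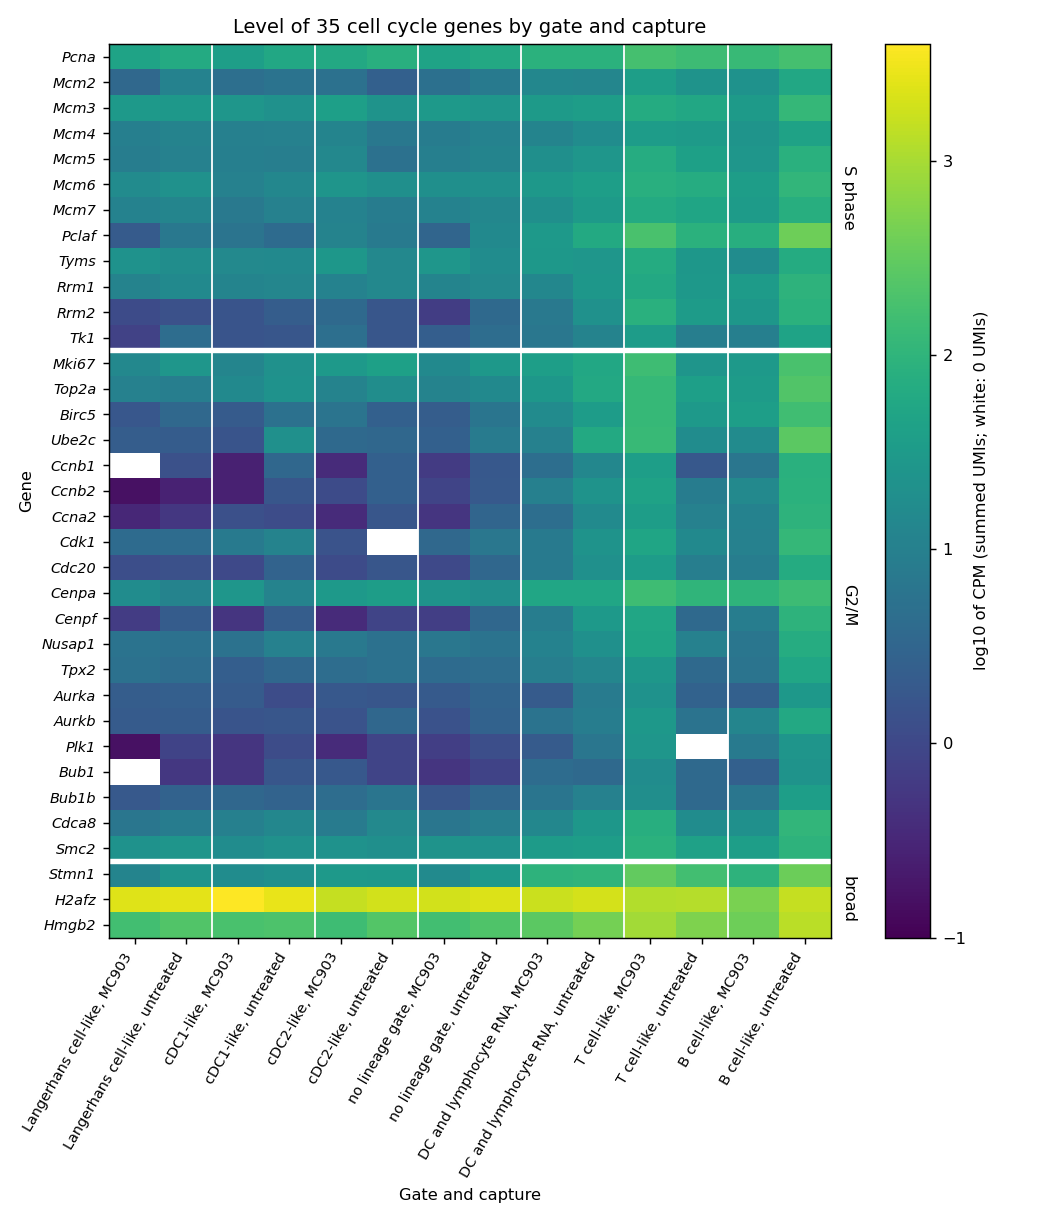
Level of each of the 35 genes (rows) in each gate of each capture (columns), as the log10 of CPM of the summed UMIs, with white cells for 0 UMIs. The lymphocyte columns at the right are brighter than the DC columns for most genes down to Smc2, while H2afz is bright in every column and brightest in cDC1-like barcodes of the MC903 capture.

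Lymphocytes caught in the same captures were set beside the DC-like barcodes, as mixed gates that were not shown to be dividing. T cell-like barcodes (at least 3 of 9 T cell markers) numbered 282 in the MC903 capture and 247 in the untreated capture, and B cell-like barcodes (at least 3 of 7 B cell markers) 404 in the MC903 capture and 307 in the untreated capture. The 20 G2/M genes summed to 109 CPM in MC903 and 147 CPM in untreated DC-like barcodes. In T cell-like barcodes the same sum was 1270 CPM in the MC903 capture and 354 CPM in the untreated capture. In B cell-like barcodes the order between captures was the opposite, with 378 CPM in the MC903 capture and 2030 CPM in the untreated capture. Cyclin B2 stood at 14.8 CPM in MC903 and 86.3 CPM in untreated B cell-like barcodes, and Ube2c at 16.8 CPM in MC903 and 278 CPM in untreated ones. Mki67 stood at 150 CPM in MC903 and 25.4 CPM in untreated T cell-like barcodes. These lymphocytes passed a sort against B220 and for CD11c and MHC class II, so they describe what came through that gate and not the lymphocytes of the node.

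DC-like barcodes also differed from lymphocytes in the mixture of genes. Per UMI of cyclin B2 there were 30.2 UMIs of Cenpa in MC903 and 10.7 in untreated DC-like barcodes, against 3.24 in MC903 and 12.3 in untreated T cell-like and 6.52 in MC903 and 1.64 in untreated B cell-like barcodes. Pcna gave 12.8 UMIs per UMI of Pclaf in MC903 and 4.84 in untreated DC-like barcodes, against 0.912 in MC903 and 1.64 in untreated T cell-like and 1.65 in MC903 and 0.454 in untreated B cell-like barcodes. Mcm6 over Rrm2 was 19.1 in MC903 and 6.29 in untreated DC-like barcodes and between 0.966 and 2.11 in the lymphocyte gates. In each of these pairs but Cenpa over Ccnb2 in untreated T cell-like barcodes, the commoner gene was more in excess in DC-like barcodes. S phase genes together outnumbered G2/M genes in DC-like barcodes, with 1.82 UMIs per G2/M UMI in MC903 BFP+, 1.53 in MC903 BFP-, 1.66 in untreated BFP+ and 1.32 in untreated BFP- barcodes. That ratio was 0.759 in MC903 and 1.70 in untreated T cell-like barcodes and 1.22 in MC903 and 0.663 in untreated B cell-like barcodes.

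The genes fell apart further when each was asked in which barcodes its UMIs lay. For every gene, DC-like barcodes with at least 3 other G2/M genes detected were picked without using the gene itself. For an S phase gene such as Pcna these were 235 of 4656 MC903 barcodes (5.05%), which held 7.60% of all UMIs, and 173 of 6337 untreated barcodes (2.73%), which held 4.04% of all UMIs. Pclaf had 66.3% of its DC-like UMIs there in the MC903 capture and 43.6% in the untreated capture. Ube2c had 50.8% in MC903 and 68.9% in untreated barcodes, cyclin B2 59.5% in MC903 and 53.7% in untreated barcodes, and the survivin gene Birc5 59.0% in MC903 and 56.5% in untreated barcodes. Apart from Pclaf in the untreated capture, these genes were read mainly from a few barcodes in which other division genes were read too. Pcna had 10.1% of its UMIs there in MC903 and 6.79% in untreated barcodes, Cenpa 6.27% in MC903 and 7.55% in untreated barcodes, and Smc2 7.70% in MC903 and 7.17% in untreated barcodes. Most of their UMIs thus lay in other DC-like barcodes, although their CPM was higher inside the picked ones, by 1.37-fold for Pcna, 1.37-fold for Cenpa and 1.73-fold for Smc2 in the MC903 capture and by 1.73-fold for Pcna, 2.40-fold for Cenpa and 2.65-fold for Smc2 in the untreated capture.

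Across the 32 genes of both phases, 5 in MC903 and 7 in untreated DC-like barcodes had at least 50% of their UMIs in such barcodes, and 20 in MC903 and 18 in untreated barcodes had under 25%. The median was 13.0% in MC903 and 9.36% in untreated barcodes for the S phase genes, and 25% in MC903 and 33.1% in untreated barcodes for the G2/M genes. Pclaf and Rrm2 (47.9% in MC903 and 44.2% in untreated barcodes) were thus S phase genes that gathered like cyclins, and Cenpa, Smc2 and Mki67 (11.1% in MC903 and 9.82% in untreated barcodes) were G2/M genes that did not. Over all kept barcodes, lymphocytes included, Mki67 had 38.7% of its UMIs in such barcodes in the MC903 capture and 42.8% in the untreated capture, and the median over both phases was 43.9% in the MC903 capture and 59.7% in the untreated capture. In levels, Ube2c stood at 17.2 CPM inside against 1.32 CPM outside such barcodes in MC903 DC-like barcodes, and at 145 CPM inside against 2.60 CPM outside in untreated ones. Pcna stood at 62.8 CPM inside against 45.9 CPM outside in MC903 barcodes, and at 104 CPM inside against 60.2 CPM outside in untreated ones.

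**Figure D2:**
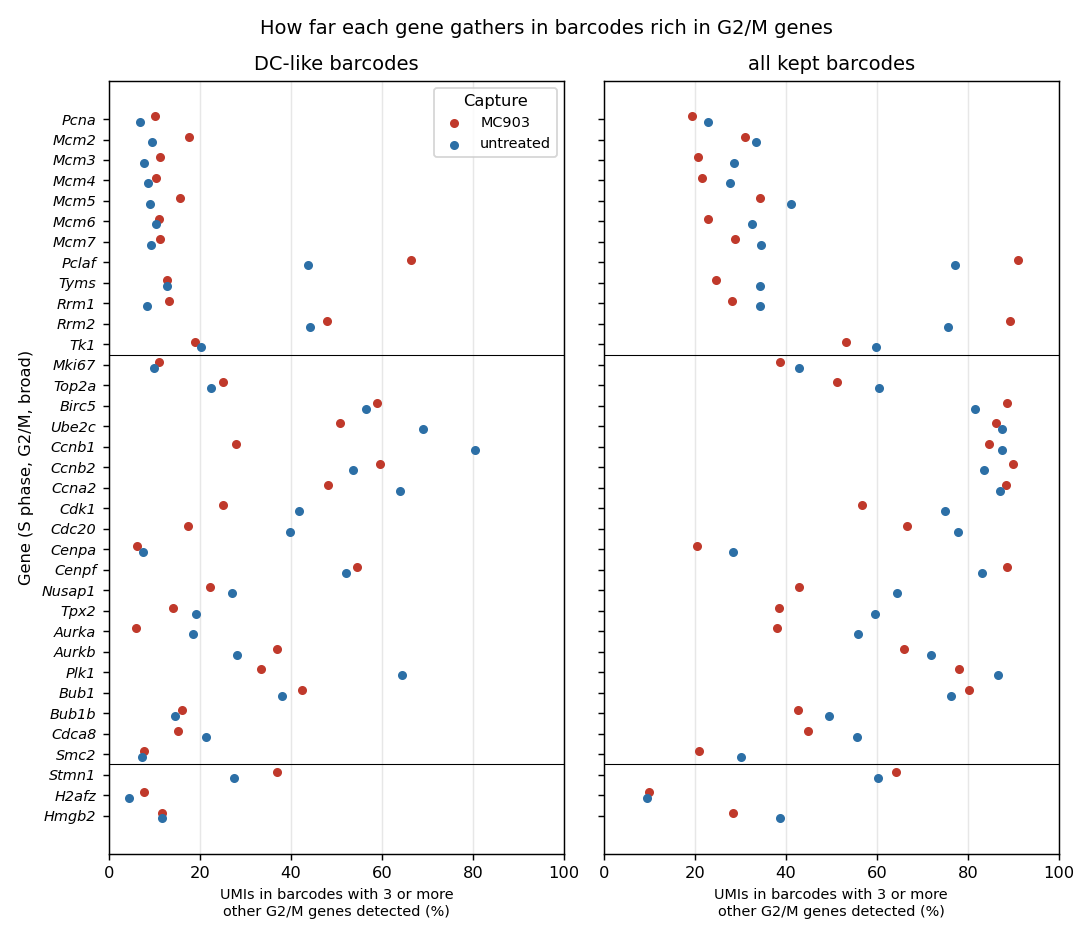
Percent of each gene's UMIs that lay in barcodes with 3 or more other G2/M genes detected, for DC-like barcodes (left) and all kept barcodes (right), with 1 point per capture. In DC-like barcodes Pclaf, Rrm2, Birc5, Ube2c and the cyclins lie between 28% and 80.4%, while Pcna, the MCM genes, Cenpa and Smc2 lie between 6.27% and 17.5%.

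To count barcodes that carried several division genes at equal depth, each barcode was thinned to 2000 UMIs. At least 2 G2/M genes were then detected in 15 of 1412 MC903 BFP+ DC-like barcodes (1.06%, interval 0.596 to 1.75), in 33 of 3074 MC903 BFP- (1.07%, 0.740 to 1.5), in 7 of 395 untreated BFP+ (1.77%, 0.715 to 3.62) and in 128 of 3474 untreated BFP- barcodes (3.68%, 3.08 to 4.37). The untreated BFP- share lay above both MC903 shares beyond their intervals, and the untreated BFP+ interval overlapped all 3 others. Barcodes too shallow to thin were left out, 11 in MC903 BFP+, 36 in MC903 BFP-, 43 in untreated BFP+ and 818 in untreated BFP-. Without thinning the shares were 18.1% in MC903 BFP+, 16.9% in MC903 BFP-, 13.7% in untreated BFP+ and 8.11% in untreated BFP- barcodes, an order that ran with depth. At least 2 S phase genes were detected after thinning in 4.75% of MC903 BFP+, 4.07% of MC903 BFP-, 5.82% of untreated BFP+ and 4.84% of untreated BFP- barcodes, with no gap like that of the G2/M genes.

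Among lymphocytes, 13 of 385 MC903 B cell-like barcodes (3.38%) and 78 of 236 untreated ones (33.1%) had at least 2 G2/M genes after thinning. In T cell-like barcodes the shares were 5.86% in the MC903 capture and 9.90% in the untreated capture, but the summed CPM ran the other way, so no order was read there. Barcodes with DC genes and at least 3 B cell or 3 T cell markers, kept apart from DC-like barcodes, had shares of 4.51% in the MC903 capture and 15.0% in the untreated capture. No gate in these captures is known to lack cell cycle genes, so no level of free RNA could be set beside these shares.

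**Figure D3:**
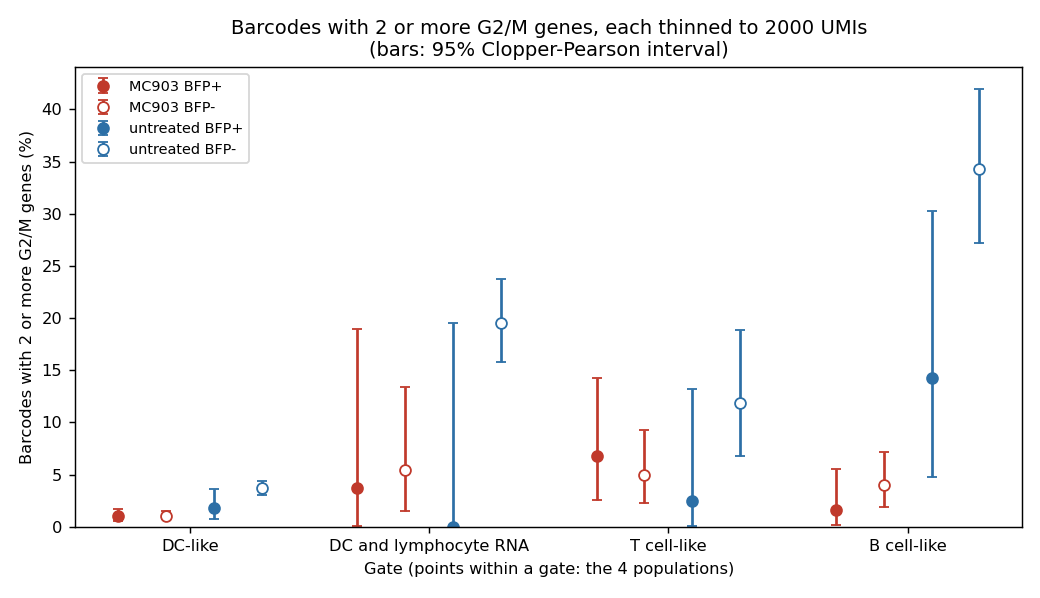
Percent of barcodes with 2 or more G2/M genes detected after thinning to 2000 UMIs, for 4 gates and the 4 populations, with 95% Clopper-Pearson intervals. The 4 DC-like points lie between 1.06% and 3.68%, below the untreated BFP- points of the lymphocyte gates. Not all lymphocyte points lie above them, as the share of MC903 B cell-like barcodes over all populations was under the untreated BFP- DC-like share.

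The DC-like barcodes richest in division genes also held more RNA of other cell types. At least 5 G2/M genes were detected, without thinning, in 63 kept barcodes of the MC903 capture, of which 21 were DC-like, 13 held DC and lymphocyte RNA, 18 were T cell-like and 4 B cell-like. In the untreated capture there were 301, of which 58 were DC-like, 64 held DC and lymphocyte RNA, 12 were T cell-like and 81 B cell-like. The rich DC-like barcodes carried the migratory DC markers at 30886 CPM in the MC903 capture and 23551 CPM in the untreated capture. DC-like barcodes with fewer than 3 G2/M genes carried more, at 35144.5 CPM in the MC903 capture and 34312.3 CPM in the untreated capture. In the rich barcodes B cell markers summed to 29.8 CPM in the MC903 and 413 CPM in the untreated ones, and plasma cell markers to 42.5 CPM in the MC903 and 426 CPM in the untreated ones. The MC903 values came from only 14 B cell and 20 plasma cell marker UMIs, and all 20 were of 1 of the 4 plasma cell markers. In DC-like barcodes with fewer than 3 G2/M genes, B cell markers summed to 17.8 CPM in MC903 and 77.8 CPM in untreated barcodes. Plasma cell markers summed there to 31.5 CPM in MC903 and 29.6 CPM in untreated barcodes. Over all DC-like barcodes 1 plasma cell marker gave 31.3 of 31.9 CPM in MC903 and 26.6 of 33.6 CPM in untreated ones. Monocyte and macrophage markers summed to 998 CPM in the MC903 and 541 CPM in the untreated rich barcodes, against 99.7 CPM in MC903 and 310 CPM in untreated DC-like barcodes with fewer than 3 G2/M genes. At least 1 B cell or T cell marker was seen in 14 of 21 MC903 and 49 of 58 untreated rich DC-like barcodes. Among DC-like barcodes with fewer than 3 G2/M genes, it was seen in 1181 of 4421 MC903 and 2371 of 6164 untreated barcodes. The rich DC-like barcodes were also deeper, with a median of 17633 UMIs in the MC903 capture and 3002.5 in the untreated capture, against 9788 in the remaining MC903 and 2632 in the remaining untreated DC-like barcodes. In the 4 DC-like populations the 7 B cell markers summed to 20.5 CPM in MC903 BFP+, 16.5 CPM in MC903 BFP-, 28.7 CPM in untreated BFP+ and 82.4 CPM in untreated BFP- barcodes. The T cell markers summed to 81.8 CPM in MC903 BFP+, 51.6 CPM in MC903 BFP-, 39.2 CPM in untreated BFP+ and 90.6 CPM in untreated BFP- barcodes. Over all MC903 DC-like barcodes 1 of the 9 T cell markers gave 52.0 of the 61.8 CPM summed, while Cd3e stood at 0.612 CPM. In untreated ones the highest marker gave 20.8 of 92.8 CPM. The T cell sum of MC903 barcodes is thus mostly 1 gene and no measure of T cell RNA as a whole. Barcodes with UMIs of that gene are also missing from the subset with 0 lymphocyte markers used below. The monocyte and macrophage markers summed to 112 CPM in MC903 BFP+, 87.9 CPM in MC903 BFP-, 97.2 CPM in untreated BFP+ and 322 CPM in untreated BFP- barcodes. The part of these RNAs in the G2/M values was not tested.

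BFP+ and BFP- cells shared a capture, so they could be compared within each. Genes with at least 50 UMIs over both populations were compared, and a gene was counted when its CPM differed at least 1.5-fold. In the MC903 capture 28 of the 35 genes had enough UMIs, 4 were lower in BFP+ DC-like barcodes and 0 were higher, where 5.29% of all 10448 genes compared were lower and 2.77% higher. The 4 were Mki67, Pclaf, Cdc20 and the Aurora kinase gene Aurkb. Mki67 differed most, with 8.04 CPM in BFP+ and 19.3 CPM in BFP- barcodes, a log2 ratio of -1.26 (interval -1.55 to -0.98). Pclaf had a log2 ratio of -0.82 (-1.43 to -0.24), and the intervals of Cdc20 (-0.98) and Aurkb (-0.68) included 0. Top2a, the topoisomerase of mitotic chromosomes, did not follow Mki67, with 11.0 CPM in BFP+ and 11.4 CPM in BFP- barcodes. The S phase genes together had a log2 ratio of 0.07 (0.00042 to 0.13) and the G2/M genes of -0.18 (-0.27 to -0.09). Mki67 gave 125 of the 1521 G2/M UMIs of BFP+ barcodes and 608 of the 3488 of BFP- barcodes. The G2/M sum thus leans on this gene, and no sum without it was taken.

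In the untreated capture 28 of the 35 genes were compared, 7 were lower in BFP+ DC-like barcodes and 2 higher, where 12.9% of all 9743 genes compared were lower and 3.8% higher. Of the lower genes 6 act in division, and they were Ube2c, Birc5, Cenpf (a kinetochore protein), Cdk1, Cdc20 and Bub1b, beside the S phase gene Pclaf. Ube2c stood at 1.35 CPM in BFP+ and 9.93 CPM in BFP- barcodes, a log2 ratio of -2.88 (-4.77 to -1.49), from 4 UMIs in BFP+ barcodes. Cenpf had 1 UMI in BFP+ barcodes and a log2 ratio of -3.45 (-8.77 to -0.91). Pclaf had a log2 ratio of -1.18 (-2.02 to -0.45). Higher in BFP+ barcodes were Tyms, with 24.6 CPM in BFP+ and 15.3 CPM in BFP- barcodes (0.69, 0.29 to 1.07), and the spindle gene Nusap1, with 9.45 CPM in BFP+ and 4.96 CPM in BFP- barcodes (0.93, 0.25 to 1.56). The G2/M genes together had a log2 ratio of -0.46 (-0.63 to -0.29) and the S phase genes of -0.13 (-0.26 to 0.0051).

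Both captures had Pclaf among the lower genes, and in both Tyms was higher in BFP+ barcodes, by 0.34 in the MC903 capture, which is below 1.5-fold. The median log2 ratio of the genes compared was -0.07 in the MC903 capture and -0.35 in the untreated capture, beside -0.04 in the MC903 capture and -0.06 in the untreated capture over all genes. Without the DC-like barcodes with 3 or more G2/M genes, a choice made after the data were seen, the G2/M log2 ratio was -0.07 (-0.17 to 0.03) in the MC903 capture and -0.09 (-0.28 to 0.10) in the untreated capture. Pclaf then turned round in the MC903 capture (0.21), as did Cdc20 in the untreated capture (0.10). Under HTODemux calls of the hashtags, Pclaf (1.14), Birc5 (0.30) and Cdc20 (0.51) turned round in the untreated capture. Among DC-like barcodes with 0 UMIs of every B cell and T cell marker (937 MC903 BFP+, 2379 MC903 BFP-, 318 untreated BFP+ and 2608 untreated BFP- barcodes), Mki67 had a log2 ratio of -1.24 in the MC903 capture, with 7.90 CPM in BFP+ and 18.6 CPM in BFP- barcodes, and of -0.64 in the untreated capture, with 18.4 CPM in BFP+ and 28.6 CPM in BFP- barcodes. In that subset 5 genes were lower and 1 higher in the MC903 capture, where 5.07% of all genes were lower and 2.94% higher, and 3 were lower and 2 higher in the untreated capture, where 10.9% were lower and 3.89% higher.

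The comparison of MC903 with untreated cells is also that of the 2 captures. Among BFP+ DC-like barcodes 20 of the 35 genes had enough UMIs, 3 were lower after MC903 and 0 higher, where 7.82% of all 9199 genes compared were lower and 6.22% higher. The 3 were Mki67, Nusap1 and Stmn1. Mki67 stood at 8.04 CPM in MC903 and 20.9 CPM in untreated BFP+ barcodes, a log2 ratio of -1.38 (-1.83 to -0.92). Nusap1 had a log2 ratio of -0.66 and Stmn1 of -0.63. The S phase genes together had a log2 ratio of -0.06 (-0.19 to 0.08) and the G2/M genes of -0.19 (-0.36 to -0.01). Of the G2/M UMIs, Mki67 gave 125 of 1521 in MC903 and 62 of 331 in untreated BFP+ barcodes. This sum also leans on Mki67, and no sum without it was taken. Among barcodes with 0 UMIs of every lymphocyte marker 5 genes were lower and 0 higher, where 6.02% of all genes were lower and 6% higher, and Mki67 had a log2 ratio of -1.22.

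Among BFP- DC-like barcodes 33 of the 35 genes were compared, 16 were lower after MC903 and 0 higher, where 14.1% of all 10782 genes compared were lower and 4.99% higher. Of the 16, 11 were G2/M genes, 4 were S phase genes (Mcm2, Pclaf, Rrm2 and Tk1) and 1 was Stmn1. Cyclin A2 stood at 0.477 CPM in MC903 and 2.76 CPM in untreated barcodes, a log2 ratio of -2.53. Cenpf had a log2 ratio of -2.46, Ube2c of -2.00, cyclin B1 of -1.91, Pclaf of -1.76 and Rrm2 of -1.53. Mki67 stood at 19.3 CPM in MC903 and 31.1 CPM in untreated barcodes, a log2 ratio of -0.69. Some genes spread over many barcodes moved less. Pcna stood at 47.6 CPM in MC903 and 64.1 CPM in untreated barcodes. Mcm6 stood at 17.6 CPM in MC903 and 18.4 CPM in untreated ones, and Cenpa at 21.5 CPM in MC903 and 17.5 CPM in untreated ones. Mki67 and Mcm2 were spread over many barcodes too, and both were among the 16 lower genes. The median was -0.68 for the G2/M genes and -0.36 for the S phase genes, beside -0.11 over all genes. Scaling by TMM in place of the total moved all ratios of this comparison by 0.11 on the log2 scale and turned no counted gene round.

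Fewer genes were counted in this comparison when barcodes with lymphocyte markers were left out. Among barcodes with 0 UMIs of every B cell and T cell marker, 5 genes were lower (Mcm2, Pclaf, Tk1, Mki67 and Bub1b) and 1 higher (Nusap1), where 10.7% of all genes were lower and 4.57% higher. Pclaf then had a log2 ratio of -1.11, Tk1 of -1.28, Mki67 of -0.62 and Nusap1 of 0.97. Cyclin B1, cyclin B2, Cdk1 and Aurkb turned round in this subset, with log2 ratios of 0.78, 0.23, 0.21 and 0.27. Even over all DC-like barcodes, cyclin B1 had only 25 UMIs in MC903 and 46 in untreated ones, and cyclin B2 37 in MC903 and 41 in untreated ones. The subset also held fewer UMIs, and 10175 genes were compared in it in place of 10782. The summed G2/M genes of untreated BFP- barcodes stood at 111 CPM in this subset against 153 CPM in all DC-like barcodes, and the share with at least 2 of them after thinning at 2.17% against 3.68%. Under HTODemux calls 4 genes differed at least 1.5-fold in place of 16, where 17.4% of all genes did.

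**Figure D4:**
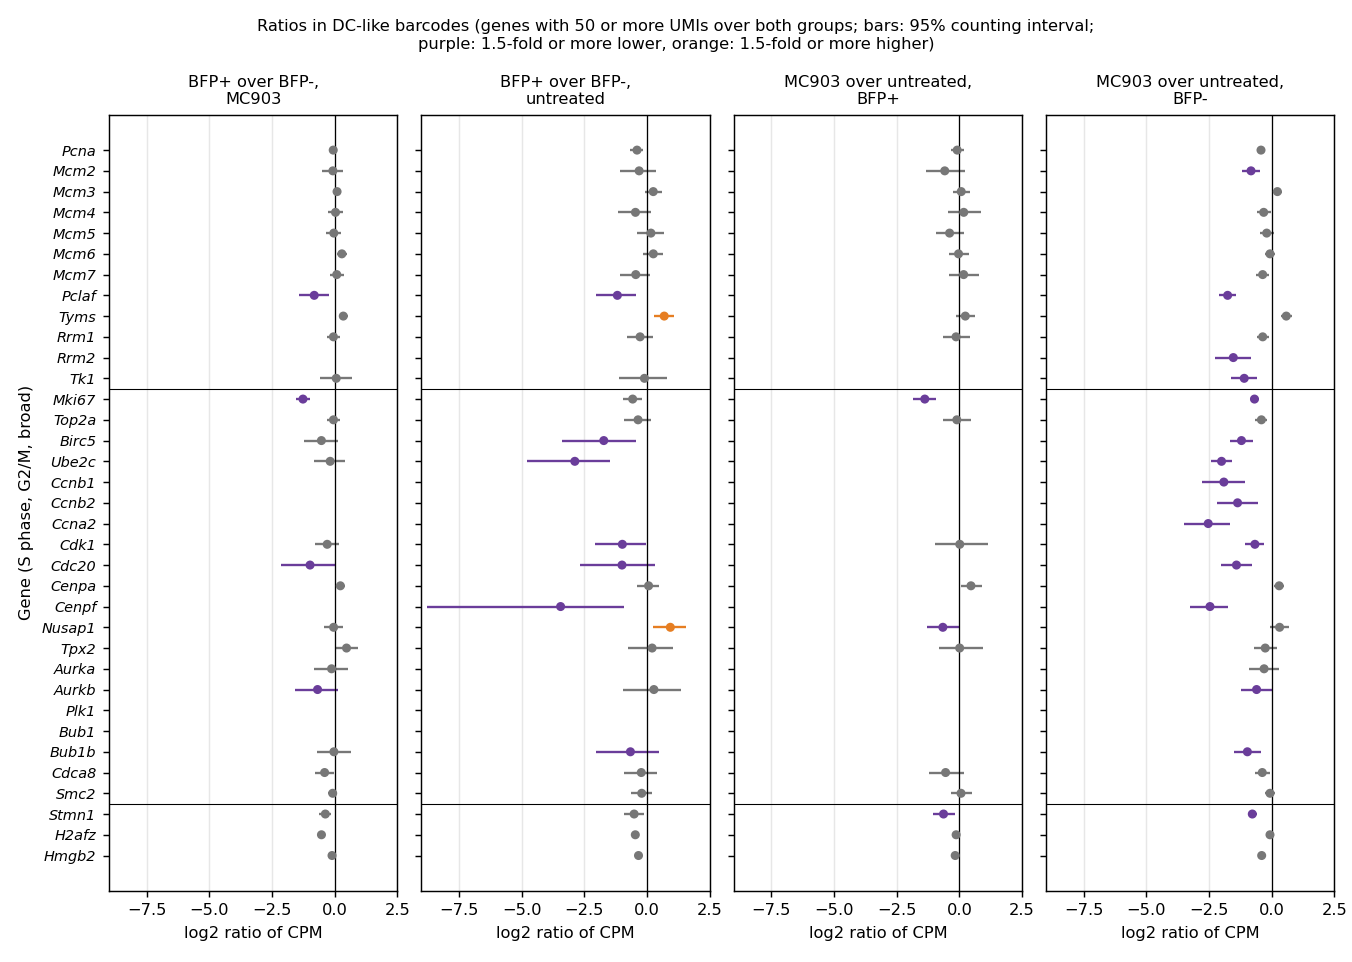
Log2 ratio of CPM for each gene with at least 50 UMIs over both groups, in the 4 comparisons of DC-like barcodes, with exact 95% counting intervals. Most points lie between -1 and 1, with Ube2c and Cenpf under -2 for untreated BFP+ over BFP- barcodes and 16 genes to the left in the BFP- comparison of MC903 with untreated barcodes.

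Within DC-like barcodes, those with at least 2 markers of a lineage were compared as Langerhans cell-like (576 MC903 and 682 untreated barcodes), cDC1-like (315 MC903 and 267 untreated) and cDC2-like (158 MC903 and 296 untreated). Most barcodes, 3607 MC903 and 5092 untreated, passed no lineage gate. The G2/M genes summed to 98.3 CPM in MC903 and 114 CPM in untreated Langerhans cell-like barcodes, to 112 CPM in MC903 and 161 CPM in untreated cDC1-like barcodes, and to 136 CPM in MC903 and 169 CPM in untreated cDC2-like barcodes. The S phase genes summed to 163 CPM in MC903 and 206 CPM in untreated Langerhans cell-like barcodes, 143 CPM in MC903 and 165 CPM in untreated cDC1-like barcodes, and 226 CPM in MC903 and 185 CPM in untreated cDC2-like barcodes. All these sums lay below those of the lymphocyte gates when each gate was taken over all populations of a capture. The lowest lymphocyte sums were then 354 CPM for G2/M genes (untreated T cell-like) and 462 CPM for S phase genes (MC903 B cell-like). By population this did not hold throughout. MC903 BFP+ B cell-like barcodes had 66 G2/M and 104 S phase UMIs among 458825 UMIs. Their G2/M level was thus under that of untreated cDC1-like and cDC2-like barcodes. H2afz was highest in cDC1-like barcodes among BFP- barcodes, at 4351 CPM in cDC1-like, 2515 CPM in Langerhans cell-like and 1549 CPM in cDC2-like barcodes of the MC903 capture, and at 2984 CPM in cDC1-like, 2686 CPM in Langerhans cell-like and 2014 CPM in cDC2-like barcodes of the untreated capture. Among BFP+ barcodes it was not, at 2016 CPM in cDC1-like, 2036 CPM in Langerhans cell-like and 1619 CPM in cDC2-like barcodes of the MC903 capture, and at 1645 CPM in cDC1-like, 2036 CPM in Langerhans cell-like and 1309 CPM in cDC2-like barcodes of the untreated capture. Mki67, over all populations of a capture, stood at 29.2 CPM in cDC2-like, 14.2 CPM in Langerhans cell-like and 12.3 CPM in cDC1-like barcodes of the MC903 capture. In the untreated capture it stood at 40.6 CPM in cDC2-like, 26.0 CPM in Langerhans cell-like and 21.3 CPM in cDC1-like barcodes.

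Other genes of the cycle were read from 4 further lists. Of 41 further S phase genes, 34 were compared between BFP+ and BFP- DC-like barcodes of the MC903 capture with 2 higher and 2 lower, and 28 in the untreated capture with 1 higher and 1 lower. Of 43 further G2/M genes, 33 were compared in the MC903 capture with 1 higher and 3 lower, and 28 in the untreated capture with 1 higher and 6 lower. Cenpe, a kinetochore motor, was lower in BFP+ barcodes of both captures, with log2 ratios of -1.30 (-2.33 to -0.40) in the MC903 capture and, from 2 UMIs in BFP+ barcodes, of -2.56 (-5.64 to -0.65) in the untreated capture. Wdr76, a chromatin protein gene, was lower in BFP+ barcodes of both captures as well, at -0.69 in the MC903 capture and -0.87 in the untreated capture, while the replication factor Gins2 was higher in BFP+ barcodes of the untreated capture (0.74). Between MC903 and untreated BFP- barcodes, 35 further G2/M genes were compared with 1 higher and 9 lower, among them Hmmr, a spindle protein gene, at -2.34, and 36 further S phase genes with 1 higher and 4 lower. Between BFP+ barcodes, 26 further G2/M genes were compared with 1 higher and 5 lower, among them Racgap1 (-1.17) and G2e3 (-1.12), and 28 further S phase genes with 3 higher and 1 lower. Uhrf1, which copies DNA methylation in S phase, was higher after MC903, at 34.9 CPM in MC903 and 14.9 CPM in untreated BFP+ barcodes and at 32.9 CPM in MC903 and 15.2 CPM in untreated BFP- barcodes. Pold1, the catalytic subunit of polymerase delta, was higher after MC903 in BFP+ barcodes, at 63.1 CPM in MC903 and 30.4 CPM in untreated barcodes. Not all replication genes were thus lower after MC903. Over all genes compared, 2.77% were higher and 5.29% lower in BFP+ than in BFP- barcodes of the MC903 capture, and 3.8% higher and 12.9% lower in the untreated capture. Over all genes, 6.22% were higher and 7.82% lower in MC903 than in untreated BFP+ barcodes, and 4.99% higher and 14.1% lower in MC903 than in untreated BFP- barcodes. Counts of these lists, and of the G1 and E2F lists that follow, that lie near these shares are no result about the lists.

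Among regulators of the G1 phase, cyclin D2 differed between all 4 populations. Ccnd2, cyclin D2, stood at 237 CPM in BFP+ and 150 CPM in BFP- barcodes of the MC903 capture, and at 69.9 CPM in BFP+ and 32.1 CPM in BFP- barcodes of the untreated capture. Its log2 ratio of BFP+ over BFP- barcodes was 0.67 in the MC903 capture and 1.12 in the untreated capture, and that of MC903 over untreated barcodes was 1.76 in BFP+ and 2.22 in BFP- barcodes. All 4 populations were thus ordered by this gene, highest in MC903 BFP+ and lowest in untreated BFP- barcodes. Cdkn1c, a CDK inhibitor, had a log2 ratio of BFP+ over BFP- of 1.09 in the MC903 capture and of -2.32 (-5.40 to -0.40) in the untreated capture, where it had 2 UMIs in BFP+ barcodes. The CDK inhibitor Cdkn1b was lower after MC903 in BFP+ barcodes by less than 1.5-fold, with a log2 ratio of -0.44. Of 18 CDK inhibitors and G1 regulators, 3 were higher and 0 lower in BFP+ barcodes of the MC903 capture, and 2 higher and 1 lower in the untreated capture. Between MC903 and untreated barcodes, 17 were compared in BFP+ barcodes with 1 higher and 0 lower, and 18 in BFP- barcodes with 1 higher and 1 lower. Of 16 E2F and pocket protein genes, none of the 13 compared in the MC903 capture, of the 11 compared in the untreated capture or of the 10 compared between BFP+ barcodes of both captures differed 1.5-fold, and 1 of the 14 compared between BFP- barcodes was lower after MC903 (E2f2, -0.99).

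Mki67 was also read in barcodes with few other G2/M genes. DC-like barcodes with at least 2 Mki67 UMIs and fewer than 2 other G2/M genes numbered 122 of 4656 in the MC903 capture (2.62%) and 79 of 6337 in the untreated capture (1.25%), and they held 56.2% of the Mki67 UMIs of MC903 and 32.3% of those of untreated DC-like barcodes. They were set against 3669 MC903 and 5544 untreated DC-like barcodes with 0 Mki67 UMIs and fewer than 2 other G2/M genes. This comparison and its genes were chosen after the values were seen, so it is a description. In the MC903 capture such barcodes made up 19 of 1423 BFP+ barcodes (1.34%, interval 0.806 to 2.08) and 97 of 3110 BFP- barcodes (3.12%, 2.54 to 3.79). In the untreated capture they made up 11 of 438 BFP+ (2.51%) and 62 of 4292 BFP- barcodes (1.44%). They were deeper than the barcodes they were set against, with a median of 13836.5 against 9327 UMIs in the MC903 capture and 7003 against 2569 in the untreated capture, so no order was read between captures or in the untreated capture.

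These barcodes carried high levels of chemokine and costimulation genes. Ccl17, a chemokine that draws CCR4+ T cells, stood at 3194 CPM against 430 CPM in the MC903 capture, a log2 ratio of 2.89, and at 1374 CPM against 281 CPM in the untreated capture, a log2 ratio of 2.29. The costimulatory receptor gene Cd40 had log2 ratios of 2.20 in the MC903 capture and 1.43 in the untreated capture. The costimulatory ligand gene Tnfsf9 had log2 ratios of 2.80 in the MC903 capture and 2.13 in the untreated capture. The neutrophil chemokine Cxcl1 had 3.30 in the MC903 capture and 2.43 in the untreated capture, and Il12b, a subunit of interleukin 12, had 2.54 in the MC903 capture and 1.10 in the untreated capture. Cdkn1a, the CDK inhibitor p21, was higher too, with 1032 CPM against 448 CPM in the MC903 capture and 1143 CPM against 478 CPM in the untreated capture. S phase genes were read from few UMIs there. Pcna had log2 ratios of 0.29 (-0.02 to 0.59) in the MC903 capture and 0.29 (-0.17 to 0.73) in the untreated capture, and Mcm3 had 0.59 (0.23 to 0.93) in the MC903 capture and 0.11 (-0.71 to 0.82) in the untreated capture. Other helicase genes were lower in the MC903 capture, with Mcm4 at -1.19 (-2.51 to -0.13), Mcm6 at -0.87 (-1.63 to -0.20) and Mcm7 at -1.42 (-2.75 to -0.36). These came from 7, 18 and 7 UMIs, and in the untreated capture their intervals included 0. Of 1458 genes ranked in both captures, 178 in the MC903 capture and 152 in the untreated capture were at least 1.5-fold higher, and 109 were higher in both, which is 61.2% of the MC903 and 71.7% of the untreated genes. Per capture, 10.3% of 3439 MC903 genes and 10.7% of 1465 untreated genes ranked were at least 1.5-fold higher.

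The same pick was made with other G2/M genes. With Cdca8, a subunit of the chromosomal passenger complex, few barcodes were found, 14 in the MC903 capture and 5 in the untreated capture, and Ccl17 was higher there too, with log2 ratios of 1.18 (0.99 to 1.37) in the MC903 capture and 1.17 (0.51 to 1.76) in the untreated capture. With Top2a in place of Mki67 (53 MC903 and 18 untreated barcodes), Ccl17 had log2 ratios of -0.59 in the MC903 capture and -1.39 in the untreated capture. With Cenpa they were -1.47 in the MC903 capture (171 barcodes) and -2.52 in the untreated capture (39 barcodes). With Smc2 they were -0.26 in the MC903 capture (123 barcodes) and -1.72 in the untreated capture (43 barcodes). With Nusap1 they were -0.38 (-0.66 to -0.11) in the MC903 capture (21 barcodes) and 0.17 (-0.57 to 0.81) in the untreated capture (5 barcodes). With Tpx2 they were 0.35 (0.07 to 0.62) in the MC903 capture (11 barcodes) and -1.37 (-3.65 to 0.17) in the untreated capture (3 barcodes). The remaining G2/M genes picked at most 7 barcodes in either capture. All these picks used DC-like barcodes of the same captures and the same bar of 2 UMIs. By lineage, the barcodes picked by Mki67 made up 12 of 158 cDC2-like (7.59%), 19 of 576 Langerhans cell-like (3.30%) and 7 of 315 cDC1-like barcodes (2.22%) in the MC903 capture. In the untreated capture they made up 4 of 296 cDC2-like (1.35%), 12 of 682 Langerhans cell-like (1.76%) and 6 of 267 cDC1-like barcodes (2.25%), in the opposite order. The 95% intervals of all 3 lineages overlapped in the MC903 capture, at 3.99% to 12.9% (cDC2-like), 2.00% to 5.10% (Langerhans cell-like) and 0.898% to 4.52% (cDC1-like), and cDC2-like barcodes were also the deepest there, so no order of the lineages is read.

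**Figure D5:**
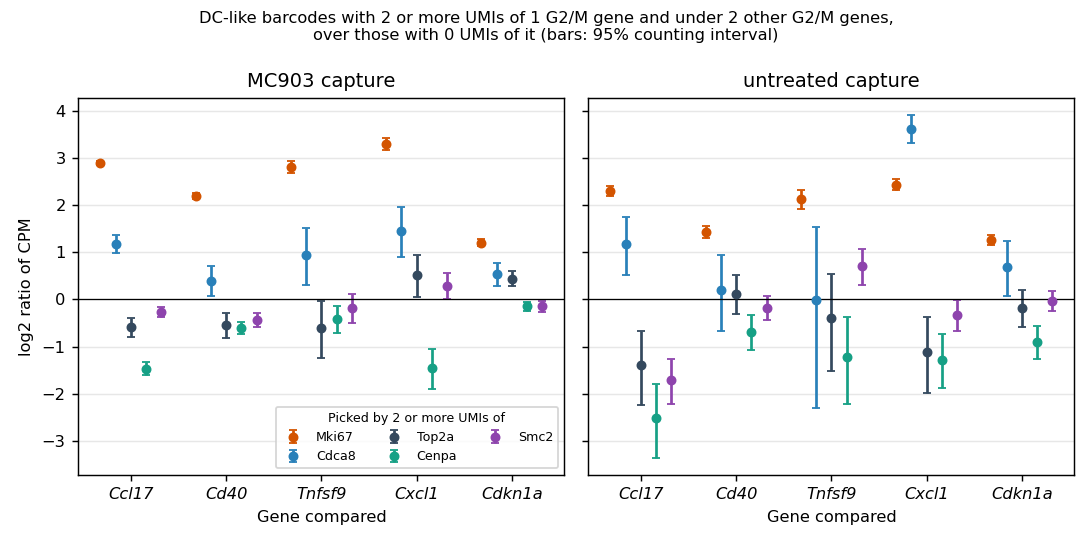
Log2 ratio of CPM of 5 genes in DC-like barcodes with 2 or more UMIs of Mki67, Cdca8, Top2a, Cenpa or Smc2 and fewer than 2 other G2/M genes, over DC-like barcodes with 0 UMIs of that gene, with 95% counting intervals, for each capture. Of the 5 picking genes shown, Mki67 gave points above 1 for all 5 genes compared in both captures, Cdca8 gave points above 1 for Ccl17 and Cxcl1 in both captures, and the other 3 gave none above 1.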

How the data were processed

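The authors deposited UMI counts for genes and hashtags in each barcode. Per the file headers they came from Cell Ranger 3.1.0, and the build was GRCm38 (mm10) per the submitters' processing notes. The libraries were 10x 3′ v3, per the labels' protocols. Members and gene lists were chosen with earlier results of these data known. From the counts, barcodes were filtered (at least 500 genes, at most 10% mitochondrial UMIs), gated on markers and given to a population when 1 hashtag held at least 80% of at least 10 hashtag counts. Mixed barcodes (123 MC903 and 1607 untreated DC-like) entered no population, and no doublet caller was run. UMIs were summed per gate and population and scaled to CPM. Levels have exact Poisson intervals, log2 ratios exact conditional intervals for 2 Poisson counts, and shares exact Clopper-Pearson intervals, at 95%. No p-value was computed. A count of 0 allows up to 3 counts. Total UMIs were 57148072 in the MC903 and 33525154 in the untreated capture. All 35 genes were named. Of each further list the counts and the 2 genes with the largest absolute log2 ratio per comparison were named, and outside the lists the 10 genes most raised in DC-like barcodes with at least 3 G2/M genes. The Mki67 comparison was added after its values were seen. Alternatives were HTODemux calls (Seurat 5.3.0, R 4.3.3), TMM scaling (edgeR 4.0.16), stricter filters, another fold, another thinning depth and barcodes with 0 lymphocyte markers. Calculations used Python 3.11.15, numpy 2.4.6, scipy 1.17.1 and pandas 2.3.3, and were tested on simulated data.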

Additional observations from a re-analysis of the deposited data

How the results depend on the processing

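Of the log2 ratios of genes counted as 1.5-fold apart, 150 moved by less than their counting interval under an alternative, 30 moved beyond it and 12 reversed, and the cause was not tested. With HTODemux hashtag calls, reversed log2 ratios were 1.14 for Pclaf, 0.30 for Birc5 and 0.51 for Cdc20 in BFP+ over BFP- untreated barcodes, and 2.52 for Rrm2, 0.17 for Ccnb2 and 0.012 for Cdk1 in MC903 over untreated BFP- barcodes. Of the untreated barcodes it called BFP+, 278 carried mainly the BFP- hashtag and 1551 were mixed. With 0 UMIs of every lymphocyte marker, Ccnb1 (0.78), Ccnb2 (0.23), Cdk1 (0.21) and Aurkb (0.27) reversed in that last comparison. Without barcodes with 3 or more G2/M genes, an alternative chosen after seeing the data, Pclaf (0.21, MC903) and Cdc20 (0.10, untreated) reversed in BFP+ over BFP- barcodes. In the counts that follow, a percent in brackets is the share of all genes compared that was 1.5-fold apart in either direction under that alternative. Where none is given, no such share was set beside the count, and the count is no result about these genes. The 4 genes apart in BFP+ over BFP- MC903 barcodes became 2 at 5% mitochondrial UMIs, 0 at a minimum of 20 CPM, 7 at a minimum of 1 UMI, 1 at 2-fold and 2 without the rich barcodes (8.33%). The 9 of the untreated capture became 3 with HTODemux (9.37%), 5 with 0 lymphocyte markers (14.8%), 1 at 20 CPM and 4 at 2-fold. The 3 of MC903 over untreated BFP+ barcodes became 7 with HTODemux (15.8%), 5 with 0 lymphocyte markers (12%), 1 with TMM, 11 at 1 UMI and 1 at 2-fold. The 16 of the BFP- comparison became 4 with HTODemux (17.4%), 6 with 0 lymphocyte markers (15.2%), 2 at 20 CPM, 10 at 2-fold and 9 without the rich barcodes (18.7%). Shares with at least 2 G2/M genes became 0.563% (MC903 BFP+), 0.515% (MC903 BFP-) and 1.85% (untreated BFP-) at 1000 UMIs. With at least 3 genes they were 0.212% (MC903 BFP+), 0.228% (MC903 BFP-), 0.253% (untreated BFP+) and 1.41% (untreated BFP-), and the untreated BFP- share was 1.44% with HTODemux and 2.17% with 0 lymphocyte markers. Summed G2/M levels without the rich barcodes were 79.99 CPM (MC903 BFP+), 84.1 CPM (MC903 BFP-), 96.9 CPM (untreated BFP+) and 103 CPM (untreated BFP-). The MC903 BFP- G2/M sum was 115 CPM with HTODemux, 107 CPM at 5% mitochondrial UMIs and 106 CPM with 0 lymphocyte markers, and the untreated BFP- sum 122 CPM with HTODemux, 111 CPM with 0 lymphocyte markers and 145 CPM with TMM. The S phase sum was 187 CPM with TMM in MC903 BFP+ barcodes. In MC903 BFP- barcodes it was 161 CPM at 5% mitochondrial UMIs, 162 CPM with 0 lymphocyte markers and 159 CPM without the rich barcodes. In untreated BFP- barcodes it was 179 CPM with HTODemux, 187 CPM with 0 lymphocyte markers, 191 CPM with TMM and 187 CPM without the rich barcodes. Of the levels of single genes 379 stayed within their intervals and 41 moved, and of the shares of UMIs in rich barcodes 130 stayed and 10 moved. Those shares use no population, so HTODemux was not run for them. No paired analysis was possible because each population is 1 pool and the populations share only replicate number 1. Depth limits the untreated BFP+ values most, with 438 barcodes.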

Other observations

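Outside the gene lists, DC-like barcodes with at least 3 G2/M genes (235 MC903 and 173 untreated) were ranked against the other DC-like barcodes, and the genes that led the ranking came from single barcodes. In the MC903 capture the highest ratio was that of Retnla, a gene known from alternatively activated macrophages, and all 668 of its UMIs in those barcodes came from 1 barcode. Of the 71 UMIs of the fibronectin gene Fn1 there, 67 came from 1 barcode. In the untreated capture the amylase gene Amy1, Bpifa2, Pip and Smr3a, genes known from salivary gland, led the ranking, and 307 of 308 Amy1 UMIs and all 1251 Bpifa2 UMIs lay in 1 barcode. Genes read from more barcodes followed, and among them the linker histone gene H1f5 stood at 13.9 CPM in the rich and 3.82 CPM in the other barcodes of the MC903 capture, and at 54.7 CPM in the rich and 5.34 CPM in the other barcodes of the untreated capture. Phgdh, the first enzyme of serine synthesis, stood at 51.6 CPM in the rich and 5.13 CPM in the other untreated barcodes, and Mef2c, a transcription factor gene that B cells also use, at 87.8 CPM in the rich and 22.2 CPM in the other untreated barcodes. Of the further G2/M genes, Hmmr had log2 ratios of rich over other barcodes of 5.25 in the MC903 capture and 6.12 in the untreated capture, Kif11 of 3.12 in the MC903 and 4.57 in the untreated capture, and Prc1 of 2.82 in the MC903 and 4.72 in the untreated capture. Cyclin D2 differed less, with 0.54 in the MC903 capture and 1.66 in the untreated capture. The rich barcodes were picked by the number of G2/M genes seen, so these values describe the pick.

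DC-like barcodes whose hashtags were mixed entered no population. Of 123 such MC903 barcodes 3 had at least 2 G2/M genes after thinning (2.44%, interval 0.506 to 6.96), and of 1295 untreated ones 37 had (2.86%, 2.02 to 3.92). The mixed MC903 barcodes had a median of 16526 UMIs and the mixed untreated barcodes of 2508.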
